A study of Mus musculus with 6 samples.

Results

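The genes described here are 10 members of the Notch pathway, measured by RNA sequencing in sorted ureteric bud cells that had lost Ash2l. They are the ligand genes Jag1, Jag2 and Dll1, the ligand ubiquitin ligase gene Mib1, the receptor genes Notch1, Notch2 and Notch3, and the target genes Hes1, Hey1 and Heyl. They were chosen by name, with earlier results of these data known. All 10 are among the 17189 genes of the count table and passed the filter on low counts, which left 13047 genes. Fluorescence-activated sorting took the cells from untreated E16.5 mouse embryos. The Ash2l conditional knockout (cKO) embryos had the genotype Hoxb7Cre-GFP+, Ash2l F/F, with 3 libraries. The control embryos had the genotype Hoxb7Cre-GFP+, Ash2l F/+, with 3 libraries, so they too carried the Cre-GFP transgene and 1 floxed allele. Recombination is driven by the promoter of Hoxb7, a gene of the ureteric lineage. The labels call the libraries biological replicates but do not say whether each is 1 embryo or a pool, so a p-value here reflects only how far these libraries spread, which may be partly technical.

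Notch signalling passes between touching cells. A ligand of the Jagged or Delta-like family on the sending cell, made active by the ubiquitin ligase MIB1, pulls on a Notch receptor of the receiving cell. The receptor is then cut by ADAM proteases and γ-secretase, and its intracellular part joins the DNA-binding protein RBPJ and Mastermind co-activators to switch on HES and HEY genes, which encode transcriptional repressors. The ureteric bud is the epithelium that branches into the collecting duct. In that duct, Notch signal received by a cell favours the principal cell fate, which moves water and sodium, over the intercalated cell fate, which moves acid and base. ASH2L belongs to the enzyme complexes that place methyl groups on lysine K4 of histone H3, a mark found at CpG-rich promoters.

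Ash2l itself had 46.1, 29.65 and 21.35 CPM in cKO replicates 1, 2 and 3, against 190, 176 and 159 CPM in control replicates 1, 2 and 3, where CPM is the count relative to the library total after TMM scaling. Ash2l fell (log2 fold change -2.44, SE 0.284, edgeR adjusted p = 0.00786). Library totals were 9620235 to 9860475 counts in cKO and 10359475 to 10538314 counts in controls. The library of cKO replicate 3 stood apart, with 1453 genes at 0 out of 11738 that exceeded 10 counts in every other sample (12.4%), while no other library had above 3 such genes. Results are therefore also given without it. Reads of the Y-linked gene Ddx3y were present in each control library (392 to 1044 counts) and in no cKO library (0 counts), so sex of the embryos and genotype cannot be told apart.

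Of the 10 genes, Jag1 rose in cKO cells and none fell (edgeR quasi-likelihood test, adjusted p under 0.05). Over all tested genes, 3.52% rose and 3.59% fell. At an unadjusted p under 0.05, 4 of the 10 were higher and 0 lower, against 11.9% and 11.1% of all tested genes. DESeq2 called 3 higher and 0 lower, against 7.9% and 7.83% of the genes it gave an adjusted p. Jag1, Mib1, Hes1 and Hey1 were above every control library in every cKO library, and 0 of the 10 were below, against 16.7% and 20.7% of all tested genes. The median log2 fold change of the 10 genes was 0.63, and that of all tested genes -0.04. Without cKO replicate 3, Jag1, Dll1, Mib1 and Hey1 rose and 0 fell, against 13.7% and 14.9% of the 13660 genes tested. Without that library 0 of the 10 had the opposite direction from that with all 6. Because the 10 were chosen with earlier results known, their shares beside those of all genes are a description only.

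**Figure D1:**
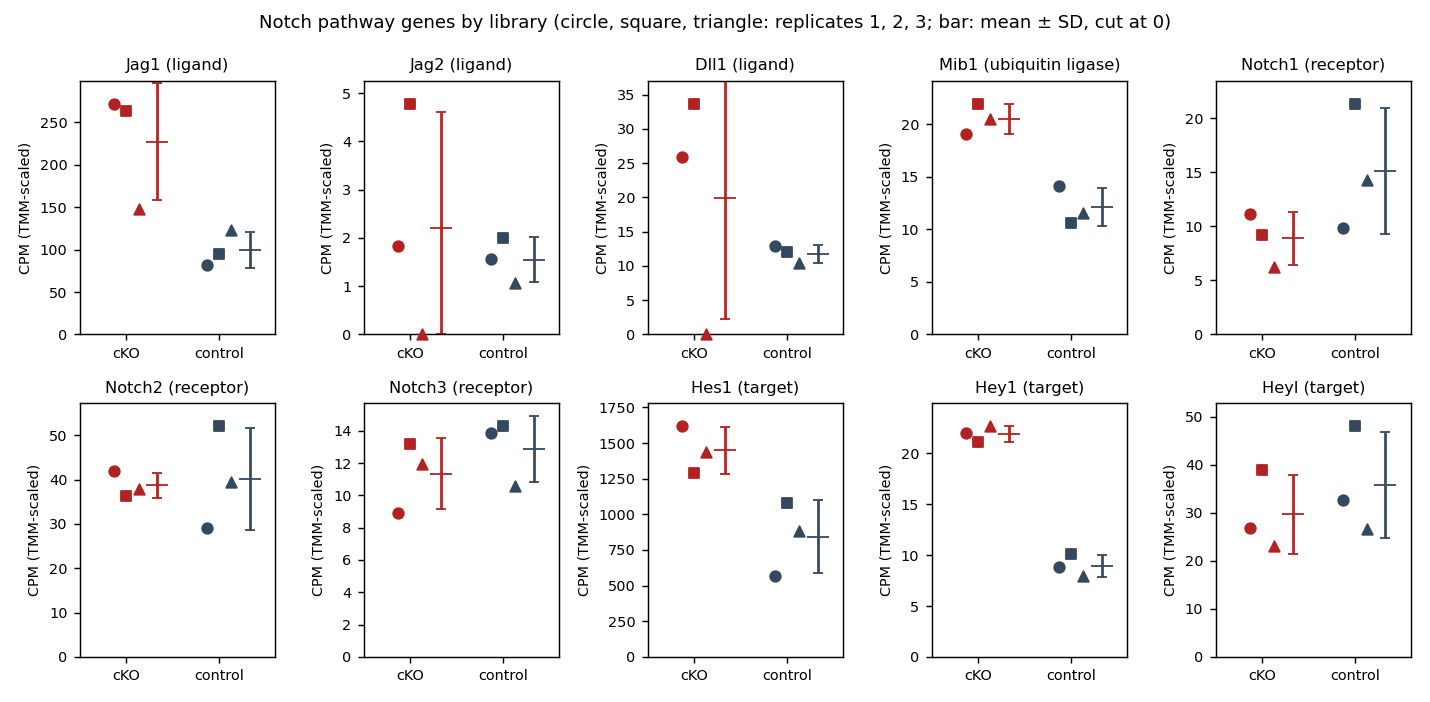
Level of each of the 10 Notch pathway genes in CPM (vertical axis, linear from 0) in the 3 cKO and the 3 control libraries, with the mean and SD beside the points. Jag1, Mib1, Hes1 and Hey1 have every cKO library above every control library, Dll1 and Jag2 are at 0 in cKO replicate 3, and the 3 receptors and Heyl overlap between the groups.

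Jag1 (Entrez Gene 16449) encodes the membrane ligand Jagged 1. It had 2655, 2589 and 1475 counts, or 271, 263 and 147 CPM, in cKO replicates 1, 2 and 3. In control replicates 1, 2 and 3 it had 831, 996 and 1259 counts, or 81.6, 94.8 and 123 CPM. All cKO libraries lay above all controls, with a narrow gap between cKO replicate 3 and control replicate 3. The mean was 227 ± 69.4 CPM in cKO and 99.8 ± 21.2 CPM in controls (SD, n = 3 each). Jag1 was thus 2.27-fold higher in cKO (log2 fold change 1.19, SE 0.27, edgeR adjusted p = 0.0496), just inside the threshold. The call was lost when any library other than cKO replicate 3 was left out. The edgeR adjusted p was then 0.132 without cKO replicate 1, 0.147 without cKO replicate 2, 0.186 without control replicate 1, 0.192 without control replicate 2 and 0.115 without control replicate 3. Without cKO replicate 3 it was 1.73e-05, with a log2 fold change of 1.41 (SE 0.145).

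The promoter of Jag1 is printed beside that of Notch2, the most abundant of the 3 receptors per length, because the one gene was called and the other was not. Each is the 250 bases before the RefSeq start on build GRCm38.p6, 5′ to 3′ along the gene, with CpG dinucleotides in capitals. The Jag1 stretch is chr2:137116521-137116770 on the minus strand and the Notch2 stretch is chr3:98013288-98013537 on the plus strand.
Jag1: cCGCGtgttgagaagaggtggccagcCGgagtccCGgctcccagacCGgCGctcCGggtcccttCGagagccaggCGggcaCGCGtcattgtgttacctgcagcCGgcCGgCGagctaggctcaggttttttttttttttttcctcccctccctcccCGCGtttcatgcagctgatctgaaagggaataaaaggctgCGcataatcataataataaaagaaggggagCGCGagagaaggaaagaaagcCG
Notch2: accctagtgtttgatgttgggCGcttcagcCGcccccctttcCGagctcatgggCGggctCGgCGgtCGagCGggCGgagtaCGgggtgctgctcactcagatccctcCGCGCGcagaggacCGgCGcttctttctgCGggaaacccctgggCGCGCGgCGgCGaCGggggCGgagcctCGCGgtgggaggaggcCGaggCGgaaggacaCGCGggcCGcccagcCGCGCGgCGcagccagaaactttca
The Jag1 stretch holds 20 CpG, more than 82.1% of the 32851 such stretches in the table, and the Notch2 stretch holds 34, more than 96.5% of them, while the median stretch holds 6. Both hold more CpG than the median stretch. Whether CpG content has a part in the changes was not tested. The table had entries for 6 of the 10 genes, the ligands and receptors, with 7 stretches in all. Mib1 and the target genes Hes1, Hey1 and Heyl had no entry and were not searched. The letters TGGGAA, the core of the RBPJ motif, were found on either strand in 0 of the 7 and in 21.6% of all stretches. The letters CACNAG, the N-box bound by HES proteins, were found on either strand in 3 of the 7, those of Notch1, Notch2 and Notch3, and in 36.7% of all stretches. These are matches of letters only, and no motif was looked for outside the stretches.

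Dll1 (Entrez Gene 13388), the ligand Delta-like 1, differed widely between cKO libraries. It had 254, 331 and 0 counts, or 25.95, 33.6 and 0 CPM, in cKO replicates 1, 2 and 3. The control replicates had 131, 126 and 106 counts, or 12.9, 12 and 10.4 CPM. The first 2 cKO libraries were above every control and cKO replicate 3 was below them all, with the gene listed at 0. A count of 0 allows up to 0.299 CPM in that library, where the floor of 3 counts covers counting error only. With all 6 libraries Dll1 was not called (log2 fold change 0.76, SE 1.42, edgeR adjusted p = 0.809). It rose 2.52-fold when cKO replicate 3 was left out (log2 fold change 1.33, SE 0.239, adjusted p = 0.00105). With any other library left out the adjusted p was 0.892 to 0.973.

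Jag2 (Entrez Gene 16450), the ligand Jagged 2, was the least abundant of the 10 genes. It had 18, 47 and 0 counts in cKO replicates 1, 2 and 3, against 16, 21 and 11 counts in control replicates 1, 2 and 3. The groups overlapped, and the log2 fold change of 0.51 had an SE of 1.49 (edgeR adjusted p = 0.882). With cKO replicate 3 left out, where the gene was listed at 0, its log2 fold change was 1.08 with an SE of 0.715 (adjusted p = 0.288).

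Mib1 (Entrez Gene 225164) encodes the ubiquitin ligase that activates ligands in the sending cell. It had 187, 216 and 206 counts, or 19.1, 21.9 and 20.55 CPM, in cKO replicates 1, 2 and 3. Control replicates 1, 2 and 3 had 144, 112 and 118 counts, or 14.1, 10.7 and 11.5 CPM. The groups did not overlap, and the 3 cKO libraries lay close together. The mean was 20.5 ± 1.41 CPM in cKO and 12.1 ± 1.81 CPM in controls (SD, n = 3 each). The log2 fold change of 0.76 (SE 0.306) was not called (edgeR adjusted p = 0.198). Mib1 rose without cKO replicate 3 at almost the same size (0.75, SE 0.257, adjusted p = 0.0429), and leaving out any other library gave no call.

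The 3 receptor genes did not pass the test. Notch2 (Entrez Gene 18129) had 41.9, 36.4 and 37.8 CPM in cKO replicates 1, 2 and 3, against 29, 52 and 39.4 CPM in control replicates 1, 2 and 3. The cKO values all lay within the range of the controls, with a log2 fold change close to 0 (-0.05, SE 0.252, edgeR adjusted p = 0.934). Notch3 (Entrez Gene 18131), a receptor best known from the mural cells of vessels, had 8.89, 13.2 and 12 CPM in cKO and 13.8, 14.3 and 10.6 CPM in controls, in replicate order. These groups overlapped as well (-0.18, SE 0.389, adjusted p = 0.835).

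Notch1 (Entrez Gene 18128) had 11.1, 9.24 and 6.29 CPM in cKO replicates 1, 2 and 3, against 9.82, 21.3 and 14.3 CPM in control replicates 1, 2 and 3. Control replicates 2 and 3 were above every cKO library, and control replicate 1 was below cKO replicate 1. Of the 10 genes it had the lowest log2 fold change (-0.77, SE 0.471, edgeR adjusted p = 0.396). Within the controls, Notch1, Notch2 and Hes1 had the same order of libraries, with replicate 1 lowest and replicate 2 highest. In cKO all 3 were highest in replicate 1, and Notch1 alone was lowest in replicate 3.

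Hes1 (Entrez Gene 15205), a repressor and the best known target of Notch in many tissues, was by far the most abundant of the 10 genes. It had 15819, 12674 and 14433 counts, or 1616, 1287 and 1440 CPM, in cKO replicates 1, 2 and 3. Control replicates 1, 2 and 3 had 5774, 11307 and 9053 counts, or 567, 1076 and 885 CPM. The groups did not overlap, and control replicate 1 was well below the other controls. The mean was 1448 ± 165 CPM in cKO and 843 ± 257 CPM in controls (SD, n = 3 each). The log2 fold change of 0.78 (SE 0.23) was not called (edgeR adjusted p = 0.098), with or without cKO replicate 3 (0.0902 without it). Without control replicate 1 it was 0.56 (SE 0.144, adjusted p = 0.152). DESeq2 called Hes1 higher (adjusted p = 0.0041).

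Hey1 (Entrez Gene 15213), a related repressor, separated the groups most evenly. It had 215, 208 and 227 counts, or 22, 21.1 and 22.65 CPM, in cKO replicates 1, 2 and 3. Control replicates 1, 2 and 3 had 90, 106 and 81 counts, or 8.84, 10.1 and 7.92 CPM. Every cKO library was far above the highest control, with little spread in either group. The mean was 21.9 ± 0.764 CPM in cKO and 8.95 ± 1.09 CPM in controls (SD, n = 3 each). This 2.45-fold difference (log2 fold change 1.29, SE 0.313) narrowly missed the threshold (edgeR adjusted p = 0.0585). Hey1 rose without cKO replicate 3 (1.26, SE 0.262, adjusted p = 0.00294), and DESeq2 called it with all 6 libraries (adjusted p = 0.000781).

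Heyl (Entrez Gene 56198), the last target gene, encodes another repressor of the HEY family. It had 26.9, 38.9 and 23.15 CPM in cKO replicates 1, 2 and 3 and 32.7, 48 and 26.7 CPM in control replicates 1, 2 and 3. The groups overlapped, and replicate 2 was the highest library in each. Heyl was not called (log2 fold change -0.27, SE 0.316, edgeR adjusted p = 0.687). Whether its difference departs from that of Hey1 was not tested.

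**Figure D2:**
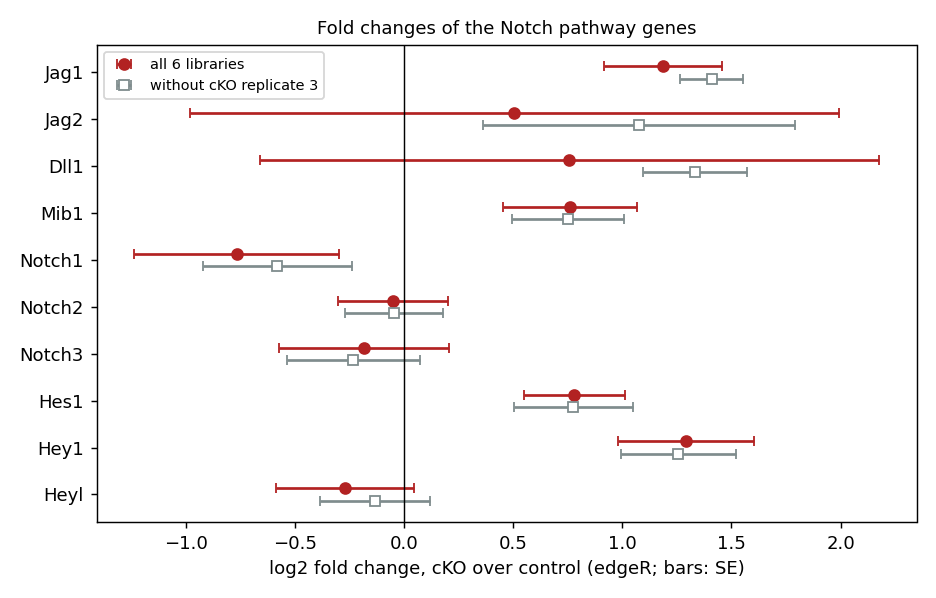
Log2 fold change of cKO over control (horizontal axis) for the 10 Notch pathway genes, with its SE, from edgeR with all 6 libraries and without cKO replicate 3. Hey1 (1.29) and Jag1 (1.19) have the highest values with all 6 libraries, Notch2 lies near 0, and the error of Dll1 shrinks from 1.42 to 0.239 when cKO replicate 3 is left out.

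**Figure D3:**
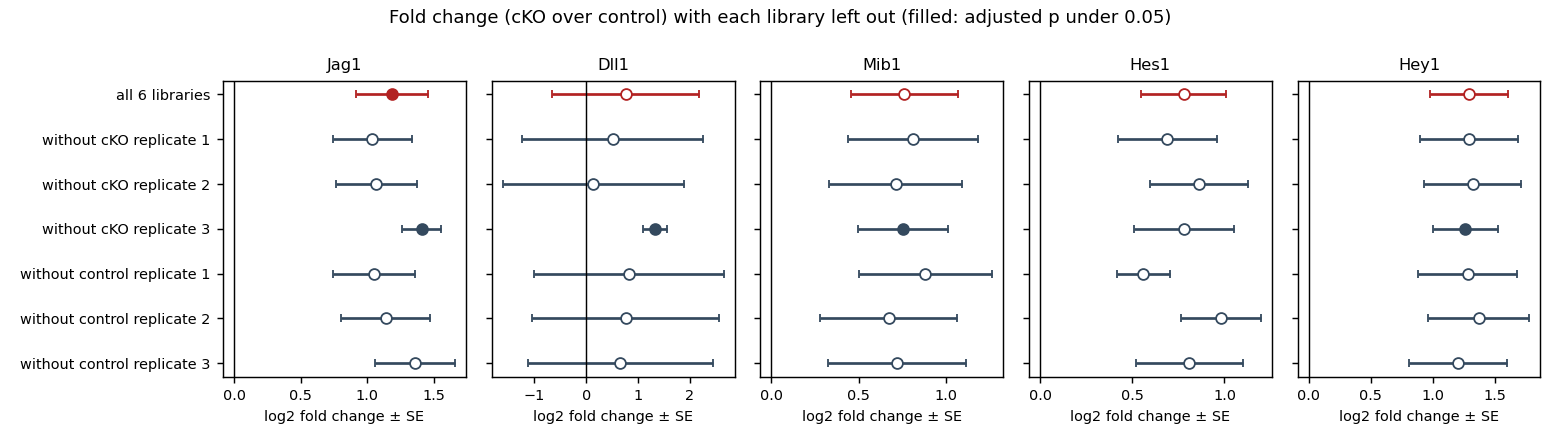
Log2 fold change with its SE (horizontal axis, a scale of its own in each panel) of Jag1, Dll1, Mib1, Hes1 and Hey1 with all 6 libraries and with each library left out in turn; filled points are called by edgeR at an adjusted p under 0.05. The values of Jag1 stay between 1.04 and 1.41 and those of Hey1 between 1.2 and 1.37, while calls appear for 4 of the 5 genes without cKO replicate 3 and for Hes1 in none of the 6.

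Levels of different genes are compared in the deposited FPKM, which is per length. In cKO cells the order of mean FPKM was Hes1 (846 ± 82.9), Jag1 (19.6 ± 5.86), Hey1 (9.21 ± 0.344), Heyl (6.63 ± 1.9), Dll1 (5.9 ± 5.26), Notch2 (3.73 ± 0.212), Mib1 (3.35 ± 0.282), Notch3 (1.38 ± 0.29), Notch1 (0.946 ± 0.248) and Jag2 (0.462 ± 0.51) (SD, n = 3). Heyl overlapped Dll1, Dll1 overlapped Notch2, Notch2 overlapped Mib1, Notch3 overlapped Notch1, and Notch1 overlapped Jag2, while Mib1 and Notch3 did not overlap. In control cells Hes1 (480.0 ± 150.0) was again first and Jag2 (0.316 ± 0.0977) last. Between them stood Jag1 (8.38 ± 1.71), Heyl (7.79 ± 2.48), Notch2 (3.76 ± 1.12), Hey1 (3.66 ± 0.491), Dll1 (3.4 ± 0.39), Mib1 (1.92 ± 0.28), Notch1 (1.57 ± 0.619) and Notch3 (1.52 ± 0.255). In controls Jag1 overlapped Heyl, Notch2 overlapped Hey1, Hey1 overlapped Dll1, Mib1 overlapped Notch1, and Notch1 overlapped Notch3. Hey1 thus stood above Heyl and apart from it in cKO, and below Heyl in controls.

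The 3 ligand genes together had 30.9, 34.1 and 12.8 FPKM in cKO replicates 1, 2 and 3, against 10.9, 12 and 13.4 FPKM in control replicates 1, 2 and 3. The 3 receptor genes together had 6.18, 6.16 and 5.82 FPKM in cKO and 5.36, 8.88 and 6.34 FPKM in controls. The ratio of the ligand sum to the receptor sum was 5.01, 5.54 and 2.21 in cKO and 2.03, 1.35 and 2.11 in controls. The high ratios were those of cKO replicates 1 and 2, and that of cKO replicate 3 was close to the controls. Jag1 made up 74.3%, 67.4% and 100% of the ligand sum in cKO replicates 1, 2 and 3, and 62.9% to 76.3% in controls. The value of cKO replicate 3 is that of a library with Dll1 and Jag2 listed at 0, and the other cKO values lay within the range of the controls.

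By a fixed rule, the genes most like Jag1 were sought among 8692 others (average log2 CPM 4 or more) by Pearson's r of log2 CPM over the 6 libraries. They were Sox6 (r = 0.996), Mtr (r = 0.994) and Acacb (r = 0.993). The 6 points fall into the 2 groups, so these values are a description and carry the difference between the groups. Sox6, an SRY-box factor, had 65, 64.1 and 47.1 CPM in cKO replicates 1, 2 and 3 and 33.6, 39 and 42.8 CPM in control replicates 1, 2 and 3.

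A list of 58 more Notch pathway genes, from receptor glycosylation to degradation, had 49 tested members, of which 2 rose and 0 fell by edgeR, against 3.52% and 3.59% of all tested genes. At an unadjusted p under 0.05, 7 were higher and 7 lower, against 11.9% and 11.1%, and DESeq2 called 7 higher and 4 lower, against 7.9% and 7.83%. Most of these shares lie near those of all genes, while that of genes called higher by DESeq2 lies above. Their median log2 fold change was 0.02, close to that of all genes, -0.04. Of 51 tested without cKO replicate 3, 6 rose and 6 fell, against 13.7% and 14.9% of all genes. The pathway column of the deposited table names Notch signalling for 59 genes; of the 44 tested ones outside the 10, 2 rose and 0 fell, and 5 rose and 5 fell without cKO replicate 3.

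Rfng encodes Radical fringe, a glycosyltransferase that extends sugars on the receptors and so changes which ligands they answer. It had 109, 105 and 136.5 CPM in cKO replicates 1, 2 and 3 and 58.4, 46 and 53.4 CPM in control replicates 1, 2 and 3. The groups were far apart, and Rfng rose (log2 fold change 1.15, SE 0.164, edgeR adjusted p = 0.013). Its call was lost without control replicate 1 (0.0584), 2 (0.0738) or 3 (0.0764) and kept without each cKO library.

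Fbxw7 encodes the part of a ubiquitin ligase that targets the Notch intracellular domain, cyclin E and other proteins for degradation. It had 27.1, 31.3 and 53.4 CPM in cKO replicates 1, 2 and 3, with replicate 3 the highest, and 13.75, 15 and 12.7 CPM in control replicates 1, 2 and 3. Fbxw7 rose (log2 fold change 1.43, SE 0.325, edgeR adjusted p = 0.0497). The call remained without cKO replicate 3 (1.07, SE 0.225, adjusted p = 0.00317) and was lost without any other library, the adjusted p reaching 0.203 when control replicate 3 was omitted.

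Nrarp, a Notch target that encodes a feedback inhibitor of the pathway, lay in the opposite direction to Hes1 and Hey1. It had 17.4, 22.3 and 4.59 CPM in cKO replicates 1, 2 and 3, against 65.6, 59.95 and 67.6 CPM in control replicates 1, 2 and 3. All cKO libraries were far below all controls, but with all 6 libraries the difference missed the threshold (log2 fold change -2.12, SE 0.532, edgeR adjusted p = 0.0642). Nrarp fell without cKO replicate 3 (-1.71, SE 0.184, adjusted p = 2.06e-05).

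Hes5, another HES target gene, was singled out after its values were seen. It had 12.1, 14.5 and 5.49 CPM in cKO replicates 1, 2 and 3 and 1.96, 2.47 and 1.56 CPM in control replicates 1, 2 and 3. All cKO libraries were above all controls, but Hes5 was not called (log2 fold change 2.41, SE 0.663, edgeR adjusted p = 0.0807). Hes5 rose without cKO replicate 3 (2.71, SE 0.398, adjusted p = 0.000241). Elf5, a duct factor downstream of Notch, had a mean of 3.04 ± 1.08 CPM in cKO and 4.28 ± 0.6 CPM in controls (SD, n = 3 each) and was not called (-0.49, SE 0.718, adjusted p = 0.755).

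Among the 10 tested genes of receptor cleavage, 8 had a higher value in cKO, against 6219 of all 13047 tested genes. None was called with all 6 libraries. At an unadjusted p under 0.05, 3 were higher and 0 lower, against 11.9% and 11.1% of all tested genes. DESeq2 called 3 higher and 0 lower, against 7.9% and 7.83%. The smallest p was that of Psen2, a catalytic subunit of γ-secretase, with 47 ± 12.5 CPM in cKO and 24 ± 3.35 CPM in controls (SD, n = 3 each; log2 fold change 0.97, SE 0.258, edgeR adjusted p = 0.0752). Without cKO replicate 3, Psen2 (0.73, SE 0.196, adjusted p = 0.0137) and the protease gene Adam17 (0.42, SE 0.114, adjusted p = 0.0134) rose. In that fit 2 of the 10 cleavage genes rose and 0 fell, against 13.7% and 14.9% of all genes. The nuclear partners gave no call. Rbpj had 39.75 ± 5.12 CPM in cKO and 34.6 ± 9.61 CPM in controls (0.20, SE 0.266, adjusted p = 0.733), and the smallest p of this group was that of the co-activator gene Maml2 (-1.10, SE 0.889, adjusted p = 0.538).

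Of the 12 tested corepressors, 6 had a lower value in cKO and 6 a higher one, and of the 9 negative regulators 7 had a lower value. Over all 13047 tested genes, 6828 were lower and 6219 higher. Snw1, a transcription and splicing cofactor that binds the RBPJ complex, had 150.2 ± 5.41 CPM in cKO and 195 ± 6.2 CPM in controls (SD, n = 3 each; log2 fold change -0.38, SE 0.0915, edgeR adjusted p = 0.0585). Without cKO replicate 3, 3 of 12 corepressors and 2 of 9 negative regulators fell, against 14.9% of all genes. In these lists 0 and 1 rose, against 13.7%. Those that fell were the corepressor genes Snw1 (-0.36), Spen (-1.06) and Hdac1 (-0.50) and the Deltex genes Dtx3l (-2.75) and Dtx4 (-0.87). The highest edgeR adjusted p of these 5 was 0.021. These 5 genes and Adam17 were named after their values were seen. Of the remaining groups, the ligand gene Dll4 (-0.42, SE 1.4, adjusted p = 0.896) and the ubiquitin ligase gene Neurl1b (-2.39, SE 0.92, adjusted p = 0.181) had the smallest p and were not called. Notch4 did not pass the filter, with 14, 7 and 0 counts in cKO and 20, 9 and 2 counts in controls.

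**Figure D4:**
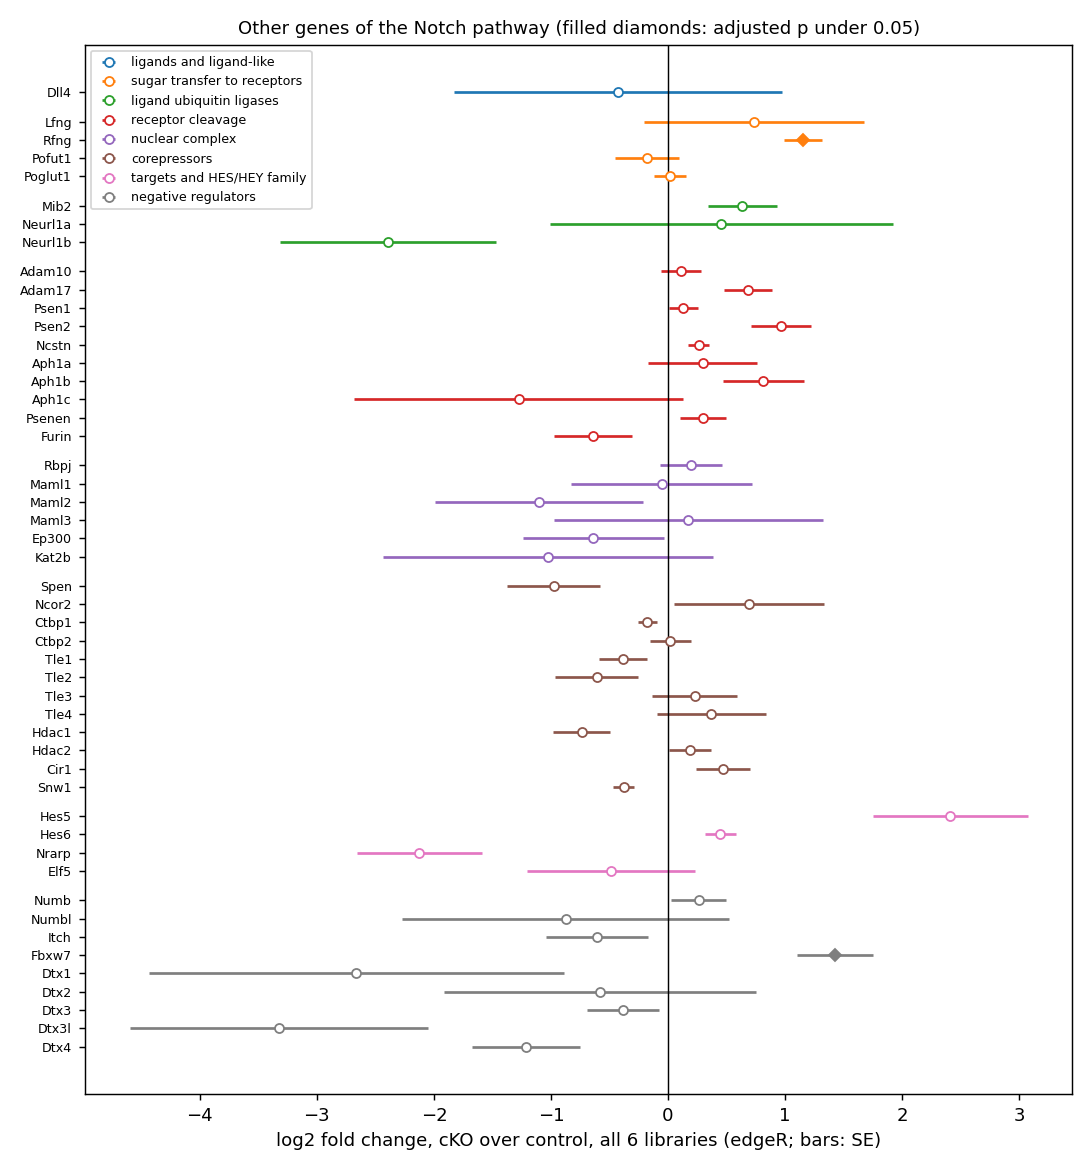
Log2 fold change of cKO over control (horizontal axis) with its SE for the 49 tested genes of the wider Notch pathway, coloured by role, with all 6 libraries. The filled diamonds, Rfng (1.15) and Fbxw7 (1.43), are the genes called by edgeR, and values lie on both sides of 0 with a median of 0.02.

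Genes of the duct cell fates were mostly lower in the same libraries. In bulk samples, fewer cells of a type and less RNA per cell cannot be told apart. Over all 13047 tested genes, 3.59% fell and 3.52% rose by edgeR, 6828 were lower, and the median log2 fold change was -0.04. Of 10 tested intercalated cell genes, 3 fell, none rose and all 10 were lower, with a median log2 fold change of -4.23. The anion exchanger gene Slc4a9 had 0, 4 and 0 counts in cKO replicates 1, 2 and 3, against 318, 536 and 325 counts in control replicates 1, 2 and 3 (edgeR adjusted p = 0.0112). Of 13 principal cell genes, 3 fell, 1 rose and 10 were lower (median -1.13). Scnn1g, which codes for part of the sodium channel ENaC, fell (log2 fold change -1.45, SE 0.221, adjusted p = 0.0154). Of 7 factors upstream of duct fates, 2 fell and all 7 were lower (median -0.76), among them Gata3 (-0.76, SE 0.148, adjusted p = 0.0325). Without cKO replicate 3 these lists had 8 of 13, 6 of 13 and 5 of 7 members that fell, against 14.9% of all genes. Among principal cell genes 2 rose in that fit, against 13.7% of all genes. They were Kcnj1, a potassium channel gene (adjusted p = 0.000282), and Stc1, a secreted hormone gene (adjusted p = 0.027), both named after their values were seen. Kcnj1 was also the gene that rose with all 6 libraries (edgeR adjusted p = 0.0307). It had 49, 65 and 160 counts in cKO replicates 1, 2 and 3 and 0 in every control. Jag1 and Hey1 were thus higher in libraries in which most tested genes of both fates had lower values.

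The sorted identity was checked with markers. All 15 ureteric bud markers were detected, with a summed level of 8220 to 9280 CPM in cKO and 12300 to 13700 CPM in controls. Of these 15, 5 fell and none rose, against 3.59% and 3.52% of all tested genes. Wnt11, a ligand of the ureteric tip, had the smallest p (-1.67, SE 0.105, edgeR adjusted p = 0.00341). Each list of markers of other cells summed to less than the ureteric bud markers in every library, but these markers were not all equal between the groups. The 17 nephron markers in the table summed to 315 to 419 CPM in cKO and 339 to 401 CPM in controls. Pax8 alone had 173 to 265 CPM in cKO and 221 to 261 CPM in controls, so the sum mainly follows that gene. Its likeness between the groups therefore does not show that the other nephron markers were alike. Of 9 tested nephron markers, DESeq2 called 4 higher and 0 lower, against 7.9% and 7.83% of all genes. In 4 every cKO library was above every control and in 2 below, against 16.7% and 20.7%. Among defining nephron markers, levels were 0 to 0.711 CPM in cKO and 0 to 0.196 CPM in controls for Six2. Slc34a1 was at 12 to 15.2 CPM in cKO and 2.93 to 5.23 CPM in controls. Nephron epithelium is known to use Jag1, Dll1, Hes5 and Hey1, and the part of these cells in the results was not tested.

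The 9 mural and smooth muscle markers in the table summed to 131 to 164 CPM in cKO and 27.7 to 40.2 CPM in controls. Of 5 tested, 2 rose, against 3.52% of all tested genes. They were Acta2, smooth muscle actin, and Tagln, a cytoskeletal gene of smooth muscle (Tagln: log2 fold change 3.78, SE 0.478, edgeR adjusted p = 0.00933). Acta2 had 30.6 to 56.5 CPM and Tagln 31.7 to 69.3 CPM in cKO, so the sum there partly follows these genes. The defining mural markers Pdgfrb and Rgs5 were at 0 to 5.31 and 5.31 to 31 CPM in cKO, against 0.293 to 1.52 and 3.52 to 5.67 CPM in controls. Both overlapped between the groups and were not called. Cspg4, a mural marker named after its values were seen, had 0, 0.102 and 0 CPM in cKO replicates 1, 2 and 3. In control replicates 1, 2 and 3 it had 2.55, 1.9 and 0.489 CPM. Cspg4 was not tested with all 6 libraries and fell without cKO replicate 3 (-4.72, SE 1.47, edgeR adjusted p = 0.028). In that fit 3 of 6 tested mural and smooth muscle markers rose and 1 fell, against 13.7% and 14.9% of all genes. The part of mural cells in the levels of Notch3 and Heyl was not tested. The 11 endothelial markers summed to 28.5 to 42.1 CPM in cKO and 55.1 to 59.7 CPM in controls. Of 4 tested 1 fell, against 3.59% of all tested genes. It was Egfl7, a secreted EGF-like protein gene (-1.85, SE 0.216, edgeR adjusted p = 0.00784). Without Egfl7 the other 10 markers summed to 13.2, 13.4 and 29.5 CPM in cKO replicates 1, 2 and 3 and to 2.45, 7.52 and 4.99 CPM in control replicates 1, 2 and 3, so this sum was higher in every cKO library. Tek, an endothelial receptor gene named after its values were seen, rose without cKO replicate 3 (log2 fold change 3.85, adjusted p = 0.0249). Their part in the results was not tested. The defining endothelial markers Pecam1 and Cdh5 were at or below 1.12 CPM in cKO and 0.393 CPM in controls. The 9 stromal markers summed to 2.19 to 25.5 CPM in cKO and 9.52 to 28.1 CPM in controls, with Foxd1 at 0 in cKO and at most 0.489 CPM in controls and Col1a1 at 2.19 to 9.95 CPM in cKO and 2.46 to 6.75 CPM in controls. The 10 immune markers summed to 59.3 to 108 CPM in cKO and 45.2 to 98.2 CPM in controls, with Ptprc at 35.6 to 46.7 CPM in cKO and 40.3 to 51.8 CPM in controls. No stromal or immune marker was called by edgeR or DESeq2 (0 of 5 and 0 of 8 tested, also 0 at an unadjusted p under 0.05). Voom with library weights called 1 of the 8 tested immune markers higher, a share near that of all genes (1607 of 13047). It was the macrophage gene Cd68, named after its values were seen. Cd68 had 14.7, 15.0 and 19.2 CPM in cKO replicates 1, 2 and 3 and 0.491, 3.04 and 8.41 CPM in control replicates 1, 2 and 3, with no overlap (log2 fold change 2.03, SE 0.92, edgeR adjusted p = 0.25). The part of immune cells in the results was not tested.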

How the data were processed

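RNA from 3 cKO and 3 control samples of sorted ureteric bud cells was made into stranded mRNA libraries, per the labels' protocols. The authors deposited a table of read counts per gene, whole numbers that are not normalized, and a table of FPKM values. The deposited FPKM values were checked to be the counts rescaled per library and gene, with a largest relative departure of 2.35e-09. The submitters' processing notes name HISAT2, HTSeq, Cufflinks, DESeq and build GRCm39; no version, role or strand setting is given there, and reads of overlapping or near-identical genes (such as Aph1b and Aph1c) are therefore uncertain. 0 columns of per-sample values were left unmapped.

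Counts were tested with edgeR 4.0.16 in R 4.3.3: filterByExpr, TMM factors, a robust quasi-likelihood fit of the 6 libraries on genotype, and Benjamini-Hochberg adjustment over all 13047 tested genes, with a threshold of 0.05. The fit was also run on simulated counts. These held no library with many genes at 0, so that run does not cover the feature of cKO replicate 3. Alternatives were size factors of DESeq2, DESeq2 1.42.0, no filter, a filter of 50 counts in 3 libraries, a replicate block, each library left out, limma 3.58.1 on log2(FPKM + 1) and log2(FPKM + 0.1), and voom with library weights. Log2 CPM for correlations used a prior count of 2.

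The genes and lists were chosen with earlier results of these data known. Named genes are Ash2l, the 10 members, called genes of the wider pathway list, the gene with the smallest p in each of its roles, defining markers, the called gene with the smallest p in each other list, and the 3 genes most like Jag1. Elf5, Rbpj, Pax8, Acta2 and Ddx3y are named outside this rule, as are the genes marked as named or singled out after their values were seen. Some nephron marker results under this rule are not reported here. Promoter sequences are RefSeq's on GRCm38.p6, matched by symbol. Intervals and floors of 3 counts cover counting error only. Replicates differed from each other by more than sampling noise, so no libraries were merged.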

Additional observations from a re-analysis of the deposited data

How the results depend on the processing

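Notch1, Notch3, Heyl, Hes1, Hey1, Mib1 and Jag1 kept their direction under every alternative run. Jag1 kept its call in 7 of 15 alternatives and lost it under the replicate block (adjusted p = 0.193), limma on log2(FPKM + 0.1) (0.0549), limma on log2(FPKM + 1) without a filter (0.0722) and 5 of the 6 left-out libraries. Jag2 turned to -0.56 under the block, -0.12 with log2(FPKM + 0.1) and -0.75 without cKO replicate 2, with a range of -0.75 to 1.08 over left-out libraries. Dll1 turned to -0.27 under the block and -0.81 with log2(FPKM + 0.1). Notch2, near 0, turned to 0.0138 with log2(FPKM + 1), with or without the filter, 0.0247 with log2(FPKM + 0.1) and 0.17 without control replicate 2, with a range of -0.25 to 0.17 over left-out libraries. Jag2 has no value under the stricter filter.

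Of the 10 genes, 3 rose by DESeq2, 2 under the stricter filter, 2 by limma on log2(FPKM + 1) and 3 by voom with library weights. Leaving out each library gave 0 to 4 that rose and 0 to 0 that fell. Of the wider pathway list, DESeq2 called 7 higher and 4 lower, and voom 7 higher and 6 lower. Of that list 1 rose with the size factors of DESeq2, with no filter, with log2(FPKM + 0.1) and with log2(FPKM + 1) without a filter. Limma on log2(FPKM + 1) called 2 lower, and 1 lower without the filter. Leaving out each library gave 0 to 6 that rose and 0 to 6 that fell. Fbxw7 lost its call in 11 of 15 alternatives, Rfng in 4. Over all genes, DESeq2 called 1029 higher and 1020 lower, limma on log2(FPKM + 1) 696 and 709, voom 1607 and 1756, and left-out libraries gave 62 to 1865 that rose and 59 to 2032 that fell, the highest counts being those without cKO replicate 3. The cause was not tested.

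The replicate block called 0 of the 10 genes and 0 of the wider list higher, and 12 higher and 11 lower over all genes. Deviations of same-numbered cKO and control libraries correlated at -0.022, 0.025 and -0.00145, a weak check with 3 libraries per group. The labels give these samples only a shared number, so pairing was not used. The SE of Jag2, with at most 47 counts in any library, was 1.49 with cKO replicate 3 and 0.715 without it, and that of Dll1 was 1.42 and 0.239.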
